A study of Canis lupus familiaris with 58 samples.

Results

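The comparison set 10 dogs whose lymph node diffuse large B-cell lymphoma (DLBCL) progressed early against 10 dogs with the same diagnosis and tissue that progressed late or not at all, out of 32 dogs with lymph node DLBCL and 58 dogs with B-cell lymphoma in all. A dog was placed in the early group when its progression-free survival (PFS) time was 125 or less and progression was recorded (PFS indicator 1), and in the late group when that time was 285 or more with either indicator; the labels give no unit of time. Early dogs had PFS times from 24 to 125 (median 81.5) and overall survival times from 71 to 240 (median 100.5), with an event recorded (OS indicator 1) for 10. Late dogs had PFS times from 285 to 1023 (median 372.5) with 8 progressions, and overall survival times from 326 to 1023 (median 550) with 5 events. Another 9 lymph node DLBCL dogs fell between the cut-offs, with PFS times from 142 to 219. All 20 tumours came from client-owned pet dogs of unstated breed and age and were sampled before treatment, and each dog gave 1 sample, so p-values measure the spread between dogs. The treatment that followed is not given in the labels. Total RNA was measured on Affymetrix canine GeneChips, and 15115 genes were read from the authors' log2 values, each through its brightest probe set on average across the 58 arrays.

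DLBCL is a fast-growing tumour of mature B cells, and in dogs it is the usual form of lymphoma. Its cells often carry the mark of the germinal centre, where B cells divide, mutate their antibody genes and are held in place by chemokine and lipid receptors until they leave the follicle. A lymph node biopsy also holds T cells, cytotoxic lymphocytes, macrophages, vessels and stroma, so a level measured on bulk RNA sums over all of them. In such bulk samples, fewer cells of a type and less RNA per cell cannot be told apart. The arrays were checked against the labelled cell type: MS4A1 (CD20), a surface marker of mature B cells, lay between 12.00 and 13.49 on the log2 scale in all 20 dogs, and CD3E, a chain of the T-cell receptor complex, between 9.08 and 10.19.

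The groups were also compared in what else the labels and arrays give, although tests on 10 dogs in each group cannot show that they were balanced. The IGHV status, which says whether the tumour's antibody gene is still acquiring mutations (ongoing) or has stopped (static), was static in 6 early and 4 late dogs and ongoing in 3 and 6, with 1 early dog not determined (Fisher's exact test, two-sided, odds ratio 2.82, p = 0.370). RNA integrity was gauged as the 3' minus 5' level of the actin and GAPDH controls, which was 0.733 ± 0.194 (SD, n = 10) in early and 0.811 ± 0.143 (n = 10) in late dogs (permutation test, two-sided, p = 0.318). Early replicate 4 stood apart from the other arrays: its mean correlation with the other 9 early dogs was 0.946, against 0.956 to 0.971 for the rest of the early group and 0.968 to 0.982 within the late group. Its array weight was the lowest, at 0.267. Early replicate 8 (weight 0.361, mean correlation 0.956) and late replicate 1 (weight 0.391, mean correlation 0.968) had the next lowest weights. The main results are also given without early replicate 4.

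No gene passed the test. In limma with Benjamini-Hochberg adjustment over all genes, 0 of 15115 genes (0%) had an adjusted p under 0.05 and the smallest adjusted p was 0.955; an exact rank-sum test also called 0. At an unadjusted p under 0.05 there were 751 genes (4.97%), 458 higher in early dogs (3.03%) and 293 lower (1.94%), where p-values spread evenly would give 755.8; the rank-sum test gave 781 (5.17%). No gene separated the groups without overlap. By sign alone 8783 genes (58.1%) were higher in early dogs and 6332 (41.9%) were lower, with a median difference of 0.02 on the log2 scale. Without early replicate 4 the count at an unadjusted p under 0.05 was 1613 (10.7%), 967 higher and 646 lower. The smallest adjusted p in that limma fit was 0.0823, with 0 genes called. That dog was picked from the same expression values, so a narrower spread and lower p-values are favoured by the choice. Over the 20 fits that each left out 1 dog, 1613 was the highest count and 584 the lowest. With 0 genes called, the differences that follow describe these 20 dogs and are read against those shares.

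**Figure D1:**
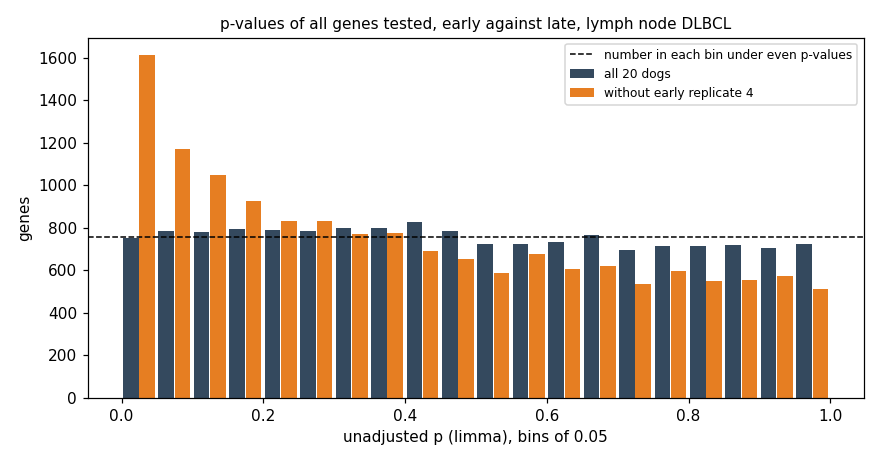
Number of genes (vertical axis) in each bin of unadjusted limma p (horizontal axis) for early against late dogs, with all 20 dogs in dark bars and without early replicate 4 in orange bars; the dashed line marks 755.8 genes. The lowest bin holds 751 genes with all dogs, at the line, and 1613 without that dog, the highest count when any 1 dog was left out.

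Genes of cell division were higher in early dogs as a block. All 24 measured members of a 30-gene mitosis list were higher (58.1% of all genes were), 14 of them at an unadjusted p under 0.05 (3.03% of all genes), with a median difference of 0.49 on the log2 scale. NCAPD2, a subunit of the condensin complex that compacts chromosomes, had the smallest p of any gene. Its level ran from 12.19 through a median of 12.62 to 12.99 in early dogs and from 11.66 through 12.18 to 12.39 in late dogs. All 10 early dogs lay above the late median and 8 lay above the highest late dog, so the groups overlapped only at the low end of the early range. The difference was 0.49 ± 0.11 (SE; limma, unadjusted p = 0.000241, adjusted p = 0.955), and all 3 of its probe sets had the same sign.

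FOXM1, the transcription factor that drives the G2 and M phase programme, ran from 8.58 through 9.16 to 10.04 in early and from 7.99 through 8.40 to 9.16 in late dogs. Every early dog was above the late median, and 5 were above the highest late dog, a difference of 0.71 ± 0.18 (limma, adjusted p = 0.955). The motor protein KIF4A, which acts on mitotic chromosomes, ran from 8.13 through 8.81 to 9.78 against 8.01 through 8.27 to 8.55, and 7 early dogs exceeded every late dog. Other members with a low unadjusted p were the spindle proteins NUSAP1 (0.59 ± 0.20), KIF23 (0.58 ± 0.18), ASPM (0.73) and CENPF (0.71), the cyclins CCNB2 (0.68) and CCNA2 (0.63), the kinases PLK1 (0.69) and AURKB (0.44), and TOP2A (0.50 ± 0.21), the topoisomerase that untangles replicated DNA. Differences were small for the G1 to S regulators on the same list, at 0.03 for CCNE1, 0.16 for CCNE2 and 0.10 for E2F1.

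Averaged over the 24 genes and centred over the 20 dogs, the mitosis list ran from -0.40 through 0.18 to 1.19 in early dogs and from -0.65 through -0.28 to 0.51 in late dogs. Early replicate 3 was the highest dog and early replicate 8 the only early dog below the late median, while late replicate 8, the dog with the longest PFS time, was the highest late dog. The list's median difference stayed between 0.37 and 0.59 over the leave-one-out fits and other settings. It was 0.49 without early replicate 4 (23 of 24 members higher, 15 at an unadjusted p under 0.05). With IGHV status as a covariate it was 0.51 (13), and with array weights 0.56 (20). Of all genes, 6.4%, 3.47% and 6.75% were higher at that threshold in these fits, in the same order.

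Replication genes followed with smaller differences. Of 27 measured members of the replication list 23 were higher in early dogs, 5 at an unadjusted p under 0.05 and 1 lower at that threshold, with a median of 0.22. The 5 became 9 without early replicate 4 (median 0.21) and 16 with array weights (0.29). The share of all genes higher at that threshold also rose, from 3.03% to 6.4% and 6.75%. RRM2, a subunit of the ribonucleotide reductase that makes deoxynucleotides, ran from 11.25 through 11.83 to 12.43 in early and from 10.67 through 11.09 to 11.75 in late dogs. All 10 early dogs were above the late median and 6 above every late dog (0.61 ± 0.16; limma, adjusted p = 0.955). The origin licensing factor CDT1 ran from 9.01 through 10.11 to 10.52 against 9.03 through 9.53 to 9.68, with 7 early dogs above every late dog. The replication initiation factors CDC6 (0.49) and CDC45 (0.46 ± 0.19) were higher by similar amounts, and the thymidine kinase TK1 differed by 0.75 ± 0.40 (unadjusted p = 0.0777). POLE2, the small subunit of DNA polymerase epsilon, went the other way at -0.59. The helicase subunits differed little, at 0.22 for MCM2, -0.03 for MCM3, 0.10 for MCM4 and -0.03 for MCM6. UHRF1, which carries DNA methylation through replication, was outside the list and differed by 0.54 ± 0.18, with 6 early dogs above every late dog.

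**Figure D2:**
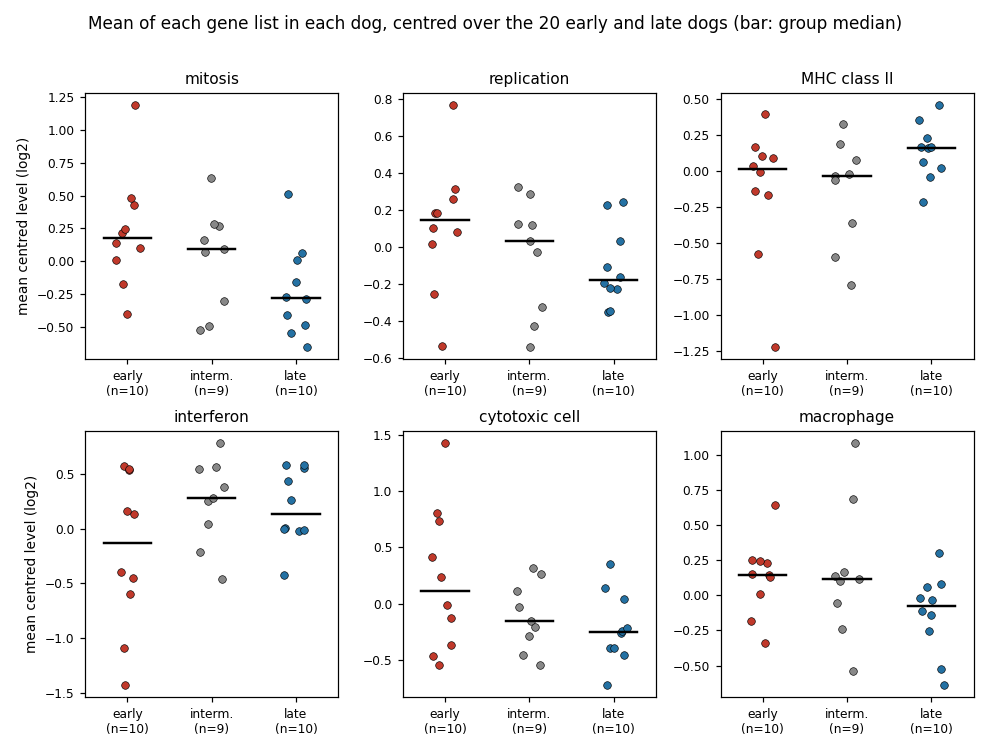
Mean centred log2 level of 6 gene lists in each dog (vertical axes), for early, intermediate and late lymph node DLBCL, with a bar at each group median. Mitosis scores are above the late median in 9 of 10 early dogs; MHC class II and interferon scores have a tail of low early dogs; the groups overlap in every panel.

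Genes outside the cell cycle that stood at the top of the ranking had no common theme fixed in a list. LITAF, a membrane protein of late endosomes and lysosomes, ran from 7.21 through 8.17 to 8.81 in early and from 6.87 through 7.38 to 7.71 in late dogs, a difference of 0.75 ± 0.20. Of the early dogs 7 exceeded every late dog and 2 were below the late median. CHCHD7, a small mitochondrial protein, ran from 6.03 through 8.99 to 10.27 against 5.66 through 6.55 to 7.50. Its difference of 1.91 ± 0.49 was the widest among the 24 named genes with the smallest p. Its early dogs split, with 6 above every late dog and the rest inside the late range. MYBPC2, a myosin-binding protein of fast muscle fibres, differed by 0.65 ± 0.16, and 7 early dogs exceeded every late dog. MOGS, the glucosidase that begins trimming of N-linked sugars, differed by 0.29 ± 0.08. ODC1, the first enzyme of polyamine synthesis, ran from 13.36 through 13.70 to 13.89 in early and from 12.71 through 13.32 to 13.89 in late dogs, so all 10 early dogs were above the late median and none was above the highest late dog (0.43 ± 0.13). Differences under 0.30 were measured for the lipid kinase PIP4K2B (0.19 ± 0.05), the xylosyltransferase XYLT1 (0.24 ± 0.07), LSMEM1 (0.28 ± 0.07) and ARPP21 (0.19 ± 0.05), whose levels lay between 3.94 and 6.30; only 1 of 4 ARPP21 probe sets had that sign.

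Several of the widest positive differences at an unadjusted p under 0.05, picked after their values were seen, were in genes that varied widely between dogs of 1 or both groups. PYGL, the liver form of glycogen phosphorylase, ran from 8.43 through 10.25 to 11.45 in early and from 5.23 through 8.71 to 11.34 in late dogs (1.90 ± 0.67). Here the spread was on the late side, where some dogs were near the level of early dogs and others were far lower. The metallothioneins MT2A (1.80 ± 0.54) and MT1E (1.53 ± 0.58), small metal-binding proteins, were higher in early dogs; these family members are close in sequence, and the probe sets may not tell them apart. CD1B, which presents lipid antigens, ran from 5.80 through 7.67 to 10.34 against 5.67 through 6.07 to 7.73 (1.54 ± 0.53). RGS13, a germinal centre brake on chemokine signalling, had a difference of 1.80 ± 0.81 that rested on a few dogs: its early median was 4.19 against 3.82 in late dogs, while its highest early dog reached 11.47, and the difference was 1.15 without early replicate 1. All late dogs were low, between 3.49 and 4.03.

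Among genes lower in early dogs, S1PR1 stood out by size. S1PR1 is the sphingosine 1-phosphate receptor through which lymphocytes leave lymph nodes. Its level ran from 6.40 through 7.47 to 10.02 in early dogs and from 8.76 through 9.13 to 10.32 in late dogs. Late dogs lay in a narrower range at the high end, whereas 7 of 10 early dogs lay below every late dog. The difference was -1.60 ± 0.42 (limma, unadjusted p = 0.00119, adjusted p = 0.955). SATB1, an organiser of chromatin in lymphocytes, had the same shape, from 5.65 through 7.65 to 8.91 in early and from 8.11 through 8.46 to 8.71 in late dogs, again with 7 early dogs below every late dog (-1.02 ± 0.34).

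CCND2, the D-type cyclin induced by B-cell activation, ran from 7.99 through 10.68 to 12.43 in early dogs and from 10.94 through 11.78 to 12.01 in late dogs. Its SD was 1.54 in early and 0.31 in late dogs, with 5 early dogs below every late dog and 2 above every one (-1.12 ± 0.47). CLIP4, a relative of microtubule-tip proteins picked after its values were seen, ran from 5.54 through 8.75 to 12.07 against 9.61 through 10.27 to 11.29 (-1.73 ± 0.62). The 4 genes did not pick out exactly the same dogs: early replicates 1, 7 and 10 were below every late dog for 4 of the 4 genes, early replicates 2, 3 and 8 for 3, and early replicate 4 for 0. Of the 17 resting B-cell genes, which include S1PR1 and SATB1, 6 were higher and those 2 were lower at an unadjusted p under 0.05, with a median of -0.04. The others ran up to 0.59 ± 0.40 for the adhesion receptor CD44, with the node-homing receptor CCR7 at -0.04.

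The kinase subunit PIK3CD, the p110 delta chain that relays B-cell receptor signals, ran from 7.71 through 8.79 to 9.86 in early and from 8.64 through 9.71 to 10.62 in late dogs (-0.85 ± 0.30). It was 1 of 19 B-cell receptor signalling genes and the only member at an unadjusted p under 0.05; 10 were higher and the median was 0.02. MALT1, a protease upstream of NF-kB, differed by -0.41 ± 0.16 and was the only member of the 19 NF-kB genes at that threshold (median 0.03). HSD17B11, a dehydrogenase of lipid droplets, ran from 5.62 through 6.07 to 7.07 against 6.40 through 7.02 to 7.70, with 7 early dogs below every late dog (-0.83 ± 0.21). GNPNAT1, an enzyme on the way to UDP-N-acetylglucosamine, differed by -0.31 ± 0.08, and ST6GALNAC4, a sialyltransferase, by -0.37 ± 0.10. PRXL2A (-0.64 ± 0.17), a peroxiredoxin-like protein, and APIP (-0.30 ± 0.08), an enzyme of methionine salvage, had no early dog above the late median. The transcription factors GTF2F2 (-0.42 ± 0.11) and SUPT3H (-0.51 ± 0.14) were also lower, as were the membrane insertase subunit EMC2 (-0.48 ± 0.14) and the sorting nexin SNX16 (-0.45 ± 0.12). With PLPP7 (-0.28 ± 0.07) and IRAK1BP1 (-1.48 ± 0.43) they completed the 12 named genes of lowest p in this direction. Larger negative differences picked after their values were seen were those of OLFM1 (-1.64 ± 0.66), KLHDC1 (-1.49 ± 0.52) and GALNT3 (-1.37 ± 0.46), an enzyme that starts mucin-type sugar chains.

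**Figure D3:**
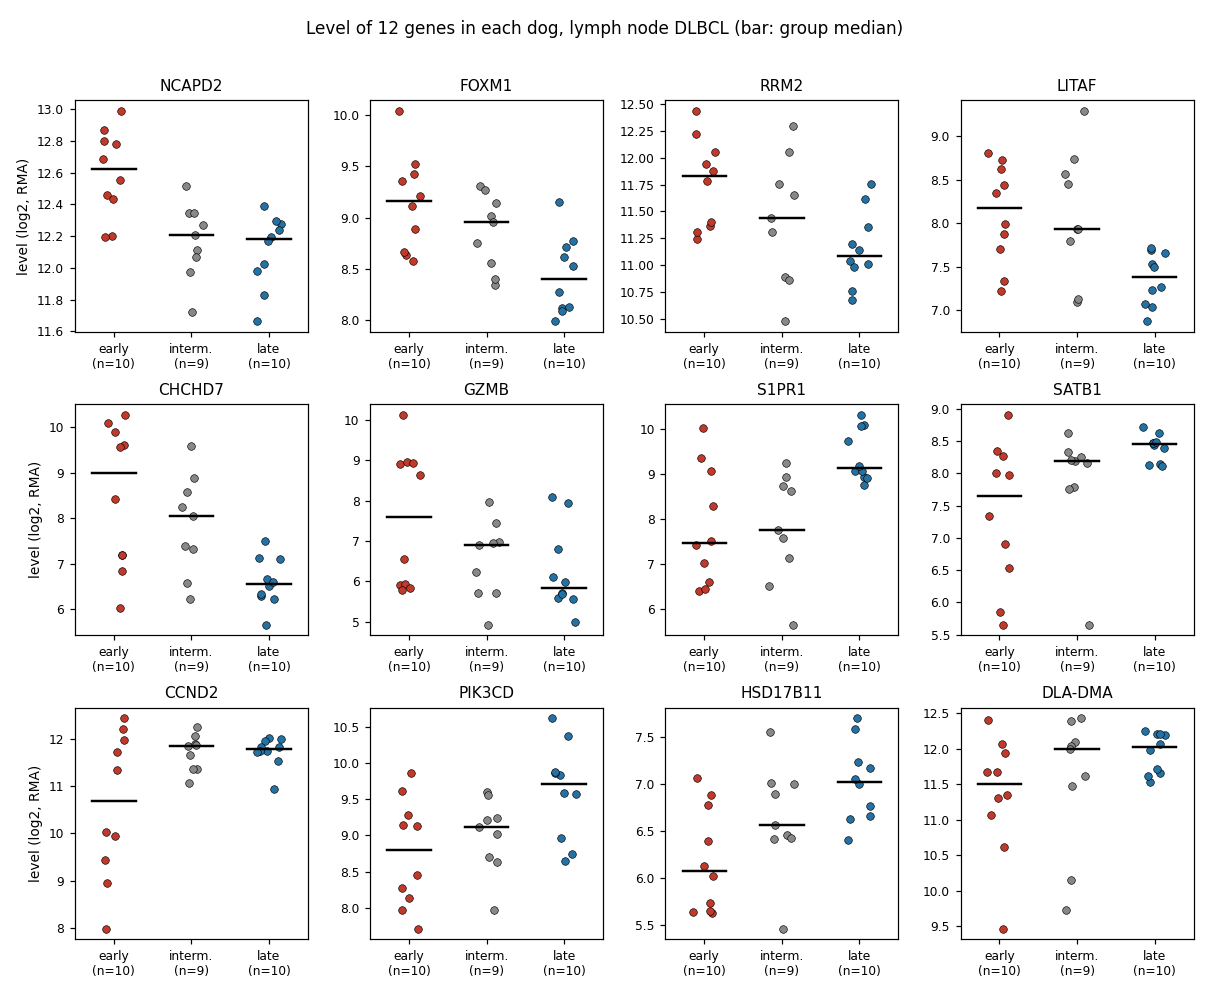
Log2 level of 12 genes in each dog (vertical axes) for early, intermediate and late lymph node DLBCL, with a bar at each group median. NCAPD2, FOXM1 and RRM2 have all 10 early dogs above the late median. S1PR1, SATB1 and CCND2 are high in late dogs, over a narrower range than in early dogs, which spread downward.

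Antigen presentation genes were lower in a subset of early dogs. Of 15 measured genes of MHC class II and its regulators 3 were higher in early dogs and 4 were lower at an unadjusted p under 0.05 (1.94% of all genes), with a median of -0.23. The 4 were the peptide-loading chains DLA-DMA and DLA-DMB, their inhibitor DLA-DOA and the antigen-presenting chain DLA-DQA1. The widest difference on the list, -0.87 for DLA-DOB, was not at that threshold. DLA-DMA ran from 9.47 through 11.51 to 12.40 in early and from 11.53 through 12.02 to 12.25 in late dogs (-0.59 ± 0.27), with 5 early dogs below every late dog and 1 above. DLA-DMB differed by -0.29 ± 0.11 and had 7 early dogs below every late dog; DLA-DOA differed by -0.53 ± 0.20 and had 6. The transactivator CIITA differed by 0.10, and the invariant chain CD74 by -0.23. Over the list, early replicates 5 (-1.22) and 4 (-0.58) were the lowest of the 20 dogs and the remaining early dogs lay within the late range of -0.22 to 0.45. The median difference was -0.08 without early replicate 5 and -0.18 without early replicate 4 (6 of 15 higher). In the latter fit 3 were lower (4.27% of all genes) and 1 was higher (6.4%) at an unadjusted p under 0.05. With IGHV status as a covariate the median was -0.17, with 5 of 15 higher and 2 lower at that threshold (2.41% of all genes). The median difference was -0.43 within static dogs, which include both early replicates 4 and 5, and 0.03 within ongoing dogs. That contrast was not tested.

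Interferon-induced and class I processing genes were lower in early dogs by sign in 26 of 26 cases (41.9% of all genes were), with 1 at an unadjusted p under 0.05 and a median of -0.18. IFI44L, an interferon-induced protein, ran from 9.50 through 12.29 to 12.92 in early and from 11.65 through 12.95 to 13.21 in late dogs, with no early dog above the late median (-0.94 ± 0.37). The antiviral proteins MX1 (-1.14 ± 0.68), ISG15 (-0.92 ± 0.59) and OAS1 (-0.90 ± 0.53) differed by similar amounts with wide errors, whereas B2M, the light chain of class I molecules, differed by -0.02 and TAP1, the peptide transporter, by -0.18. The list score ran from -1.43 through -0.13 to 0.58 in early and from -0.42 through 0.14 to 0.59 in late dogs. Early replicates 1 and 5 were lowest, at -1.43 and -1.09 and 5 early dogs were above the late median. Without early replicate 4, 5 of 26 were higher and the median was -0.20.

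Markers of cytotoxic lymphocytes were higher in early dogs in 14 of 15 cases, 2 at an unadjusted p under 0.05, with a median of 0.39. That count was 0 without late replicate 1 (median 0.33) and 4 without early replicate 4 (0.41). Of all genes, 2.54% and 6.4% were higher at that threshold in these fits. GZMB, the granule protease of killer cells, ran from 5.77 through 7.59 to 10.13 in early and from 4.99 through 5.84 to 8.08 in late dogs, with 5 early dogs above every late dog and the other 5 within the late range (1.31 ± 0.59). GZMA, its trypsin-like partner, differed by 0.59 ± 0.28, and the chemokine CCL5 by 1.08 ± 0.60. Early replicate 1 held the highest score, 1.42, and the median difference was 0.19 without it. Of the general T-cell markers 11 of 21 were higher, 1 was lower at an unadjusted p under 0.05 (CD96, -0.17 ± 0.07, with only 1 of 3 probe sets of that sign), the median was 0.00, and CD3E differed by -0.11 ± 0.11. T-cell costimulation and checkpoint genes had 7 of 19 higher and a median of -0.04, with the follicular chemokine CXCL13 at -0.90 ± 0.51.

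Macrophage markers were higher in early dogs in 20 of 21 cases, 1 at an unadjusted p under 0.05, with a median of 0.22. The median was 0.13 without late replicate 4 and 0.14 without late replicate 1. At that threshold 3 markers were higher without early replicate 4 or with IGHV status as a covariate. The shares of all genes were 6.4% and 3.47% in these fits. CTSD, a lysosomal protease, ran from 10.18 through 10.88 to 11.63 in early and from 9.63 through 10.24 to 11.14 in late dogs, with 9 early dogs above the late median (0.59 ± 0.20). GPNMB, a lysosomal glycoprotein of phagocytes, differed by 0.56 ± 0.30, CSF1R, the receptor for macrophage growth factor, by 0.29 ± 0.16, CD68 by 0.47 and CD14 by 0.14 ± 0.13. The list score ran from -0.34 through 0.15 to 0.65 in early and from -0.64 through -0.07 to 0.30 in late dogs. Mean levels of the 21 markers ran from 5.29 to 13.03. The part of cytotoxic cells and macrophages in the other differences was not tested.

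The medians of the other tissue marker lists were within 0.10 of 0, although single members differed more with wide errors. Fibroblast and matrix genes were higher in 20 of 24 cases with a median of 0.08 and none at an unadjusted p under 0.05; COL1A1, the main chain of type I collagen, ran from 5.11 to 8.99 in early and from 4.62 to 8.96 in late dogs (0.03 ± 0.54). All 10 adipocyte markers were higher, by a median of 0.10, and all 10 early scores were above the late median; PPARG, the master regulator of fat cells, was at 9.09 in early replicate 1, and its difference of 0.46 ± 0.33 was 0.12 without that dog. Granulocyte markers were higher in 4 of 13 cases (median -0.08), with the calcium-binding protein S100A8 at -0.95 ± 0.54. Erythroid markers were higher in 8 of 9 cases (0.09), with the carbonic anhydrase CA2 at 1.86 ± 0.94 (unadjusted p = 0.0611), from 4.49 through 5.60 to 12.01 in early and from 4.74 through 5.15 to 6.84 in late dogs. Epithelial and muscle markers were higher in 8 of 12 cases (0.05), with the adhesion protein EPCAM at 0.90 ± 0.54. Platelet markers were higher in 6 of 9 cases (0.03), lymph node stroma genes in 9 of 15 (0.01, with the survival cytokine IL7 at -0.59 ± 0.25) and endothelial and mural genes in 13 of 22 (0.04). Among the last, PLVAP was higher (0.17 ± 0.06, 1 of 2 probe sets with that sign) and the VEGF receptor FLT1 (-0.28 ± 0.11) and the TGF-beta co-receptor ENG (-0.14 ± 0.07) lower at an unadjusted p under 0.05. The 3 measured sex-linked genes, each read through 1 probe set, had a median of 0.08. EIF2S3, 1 of them, differed by -1.29 with the mean of all its probe sets. The median therefore does not show that the groups were alike in sex, which was not tested.

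B-cell identity genes differed little. Of 15 identity genes 6 were higher and none was at an unadjusted p under 0.05 (median -0.08), with MS4A1 at -0.08 ± 0.18, CD79A, a signalling chain of the B-cell receptor, at 0.09 ± 0.41 and EBF1, an early B-cell transcription factor, at -0.39 ± 0.19. Germinal centre genes had 9 of 17 higher (median 0.03), 3 of them at an unadjusted p under 0.05, namely RGS13, the follicle-confinement receptor S1PR2 (0.33 ± 0.15, all 10 early dogs above the late median) and the DNA glycosylase NEIL1 (0.55 ± 0.26). BCL6, the repressor that defines the germinal centre state, differed by -0.16 ± 0.39, and its early dogs ran from 7.45 to 11.58. Activated B-cell-like genes had 10 of 16 higher (median 0.04), with the kinase PIM1 at 0.35 ± 0.15 against CCND2 on the same list. Plasma cell and secretion genes had 9 of 17 higher and a median of 0.01.

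Several genes known from lymphoma and its treatment differed by less than their SE. MYC differed by 0.02 ± 0.23, BCL2, the survival protein, by 0.17 ± 0.23, the drug efflux pump ABCB1 by -0.06 ± 0.15 and the glucocorticoid receptor NR3C1 by 0.15 ± 0.19. The lists around them were near the median of all genes: MYC targets 0.06 (15 of 23 higher), the BCL2 family and apoptosis 0.02 (12 of 21), drug transport and metabolism 0.02 (13 of 23), glucocorticoid response -0.01 (8 of 17, with the clock gene PER1 at 0.35 ± 0.16) and chromatin regulators 0.02 (14 of 25). Within the TNF family 18 of 27 were higher with a median of 0.02, 3 of them at an unadjusted p under 0.05. CD70, the ligand of CD27, ran from 6.83 through 8.99 to 10.35 in early and from 6.46 through 7.63 to 10.12 in late dogs (1.13 ± 0.47), with 9 early dogs above the late median; TNFSF9, the ligand of 4-1BB, differed by 0.33 ± 0.11. Of 26 cytokines and chemokines 16 were higher (median 0.04), with TGFB1 (0.69 ± 0.26) and IL10 (0.65 ± 0.28), both dampers of immune responses, at an unadjusted p under 0.05 and TNF at -0.35 ± 0.17.

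Metabolic and stress lists had small medians. They were 0.06 for oxidative phosphorylation (23 of 28 higher; 0.16 without early replicate 4, but -0.0034 with 13 of 28 higher without late replicate 1), 0.04 for hypoxia and glycolysis (13 of 20), 0.08 for cholesterol and fatty acid synthesis (12 of 17), 0.07 for immediate early and stress genes (11 of 19), 0.07 for DNA damage repair (17 of 26), -0.09 for the p53 pathway (6 of 16) and -0.02 for ribosomal proteins (8 of 30). RPL22, a ribosomal protein of the large subunit, was the widest of the last at -0.59 ± 0.26. FOS and JUN, partners in the AP-1 factor, differed by -1.05 ± 0.57 and 0.76 ± 0.41. Tryptophan and kynurenine genes had 3 of 12 higher and a median of -0.13. KMO, the kynurenine hydroxylase, ran from 8.27 through 11.86 to 12.57 in early and from 11.50 through 12.16 to 12.91 in late dogs (-0.87 ± 0.42), and the difference was -0.54 without early replicate 8. PKIA, an inhibitor of protein kinase A, ran from 4.76 through 9.55 to 11.83 against 5.10 through 11.01 to 11.97 (-1.78 ± 0.97), and the T-cell factor TOX differed by -0.55 ± 0.51.

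**Figure D4:**
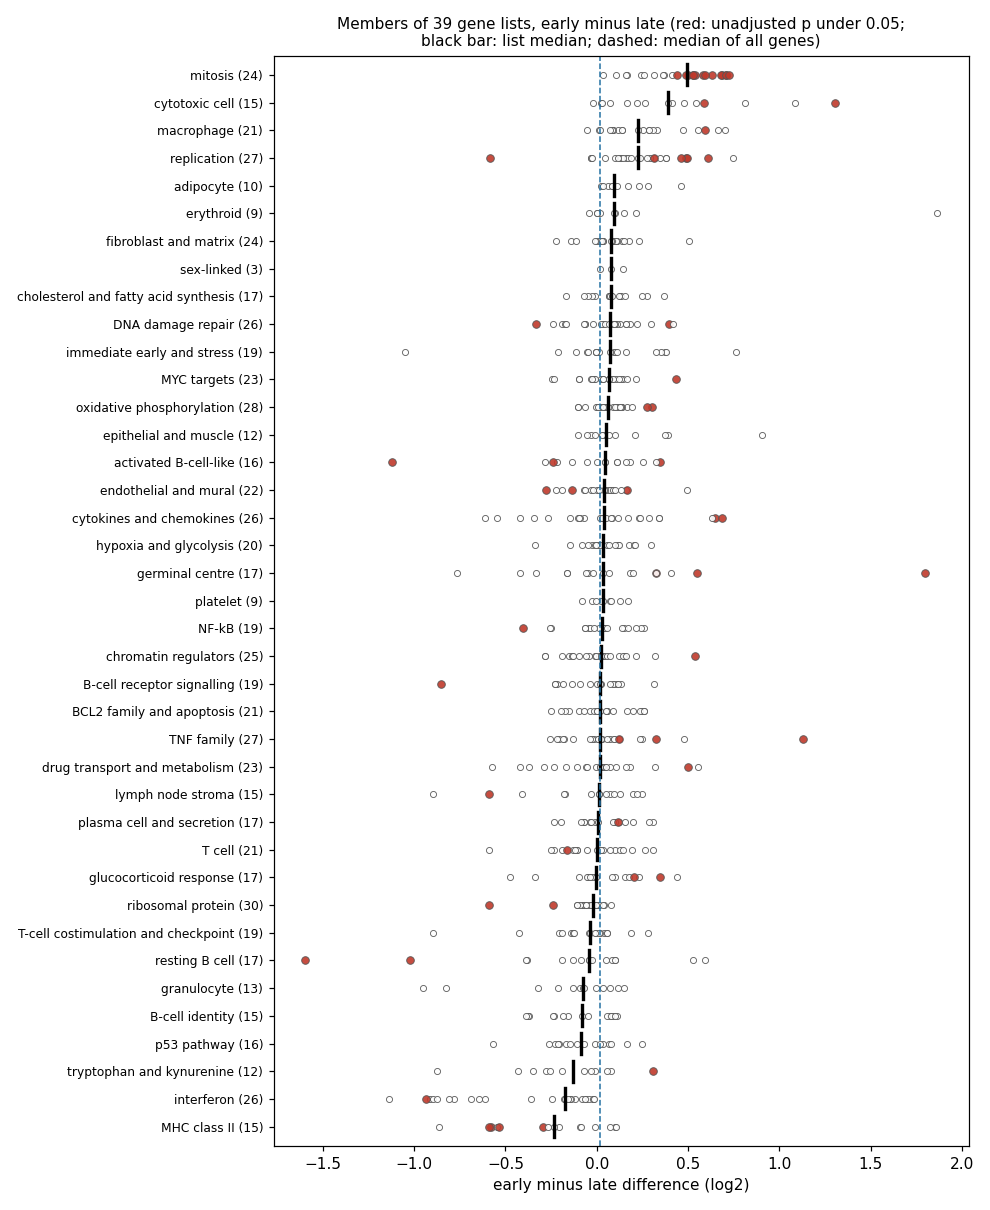
Early minus late difference in log2 level (horizontal axis) of every measured member of 39 gene lists (rows, with the number measured), in red where the unadjusted p was under 0.05; black bars are list medians and the dashed line is the median of all genes, 0.02. Mitosis is at the top with a median of 0.49 and MHC class II at the bottom with -0.23; most lists lie near the line.

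Dogs with intermediate PFS times lay between the groups for most of the leading genes. Of the 24 named genes with the smallest p, 12 in each direction, 21 had an intermediate mean between the early and late means. These means share the early and late dogs that ranked the genes. The genes were picked for early and late means that lay apart, so an intermediate mean between them is favoured by that choice. The share over all genes was not counted, so the 21 do not show a graded relation to PFS. Over 15115 genes limma called 0 for early against intermediate dogs (871 at an unadjusted p under 0.05, 5.76%) and 0 for intermediate against late dogs (795, 5.26%). The mitosis list had medians of 0.22 for early minus intermediate and 0.23 for intermediate minus late. NCAPD2 was near the late level, since its intermediate median of 12.20 lay next to the late median of 12.18. S1PR1, at an intermediate median of 7.75, was nearer the early dogs, and CCND2, at 11.85, was nearer the late dogs. The interferon list differed by -0.29 between early and intermediate dogs and by 0.04 between intermediate and late dogs, the macrophage list by -0.03 and 0.26.

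A Cox score test of PFS on the 30 lymph node DLBCL dogs with a PFS time, 27 of them with progression, called 0 genes with Benjamini-Hochberg adjustment (smallest adjusted p 0.167) and gave 802 at an unadjusted p under 0.05 (5.31%). These dogs include the 20 compared above. A higher level went with a higher hazard in 21 of 24 mitosis genes, 22 of 27 replication genes, 15 of 15 cytotoxic and 18 of 21 macrophage genes, against 57.2% of all genes, while 0 mitosis genes and 1 replication gene were at that threshold with a higher hazard (3.17% of all genes). The hazard ratio for each unit of log2 level was 6.44 for MYBPC2 (95% interval 2.41 to 17.2), 0.546 for S1PR1 (0.37 to 0.805) and 0.474 for CCND2 (0.287 to 0.784). These genes were named for a low p in the early against late comparison, which used 20 of these 30 dogs. Intervals away from a ratio of 1 are therefore favoured by that choice of genes.

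The cut-offs were also set on needle aspirates, which came from other dogs: 3 early (PFS times 26, 44 and 104) and 9 late. Their diagnosis is labelled unknown. In a limma fit of 4 groups, 0 genes were called between early and late aspirates (smallest adjusted p 0.605; 1101 at an unadjusted p under 0.05, 7.28%), and 0 differed in their early minus late difference between tissues (smallest adjusted p 0.914; 797 at an unadjusted p under 0.05, 5.27%). Cell division genes had the same sign here: 23 of 24 mitosis genes were higher in early aspirates, with a median of 0.27 and 0 at an unadjusted p under 0.05, and 26 of 27 replication genes, with a median of 0.30 and 3 at that threshold, against 52.1% of all genes higher and 2.59% higher at that threshold. Macrophage markers were higher in 17 of 21 cases (median 0.35) and cytotoxic markers in 9 of 15 (0.22). The pattern was not particular to cell division, since oxidative phosphorylation genes were higher in 26 of 28 cases (0.27). T-cell markers went the other way, with 4 of 21 higher (-0.14).

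MHC class II and interferon genes did not have the node's sign in aspirates, a difference between tissues that was not tested for the lists. MHC class II genes had a median of 0.02 with 8 of 15 higher, and interferon genes a median of 0.13 with 18 of 26 higher. Of the 24 leading genes 14 had the same sign in aspirates, and 10 had an unadjusted p under 0.05 for the difference between tissues. These genes were ranked by the node difference, which is part of that contrast, so low p-values for it are favoured by the choice of genes. HSD17B11 differed by 0.47 in aspirates against -0.83 in nodes (unadjusted p of that difference 0.00238, adjusted p = 0.914), CHCHD7 by -0.81 against 1.91, and S1PR1 by -0.08 against -1.60 (unadjusted p 0.107). SATB1 differed by -0.27 against -1.02 (0.259). RRM2 differed by 0.50 against 0.61, UHRF1 by 0.69 against 0.54 and GZMB by 1.58 against 1.31. Over the 751 genes at an unadjusted p under 0.05 in nodes, 449 (59.8%) had the same sign in aspirates, against 53.1% of all genes.

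**Figure D5:**
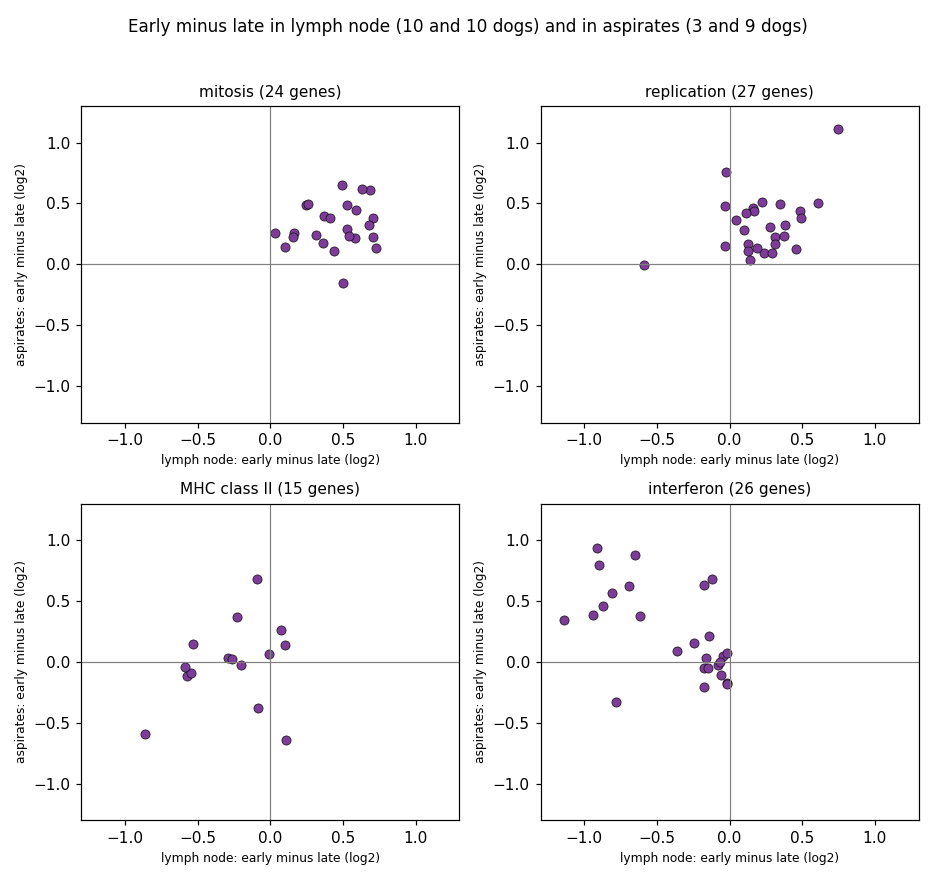
Early minus late difference in log2 level in lymph node (horizontal axes) and in aspirates (vertical axes) for each measured gene of 4 lists. Mitosis and replication genes lie mostly right of 0 and above 0; 12 of 15 MHC class II and 26 of 26 interferon genes lie left of 0 in lymph node and on both sides of 0 in aspirates.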

How the data were processed

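The authors deposited log2 values of 43035 probe sets on 58 arrays. They used RMA in Affymetrix Expression Console, per the submitters' processing notes; versions, scan dates and the array's genome build are not given in the sources used here. RMA corrects background and normalizes between arrays. A platform table gave 29254 probe sets 1 symbol, 439 several and 13231 none; 111 were controls. Array medians lay between 7.08 and 7.20, and no pair of arrays was a repeat (highest correlation 0.990). Groups came from the labels' PFS fields. The early and late groups were compared with limma 3.58.1 in R 4.3.3, without covariates or level filter, and tested on simulated data. The genes named were the 12 smallest p-values in each direction, up to 3 members of each of 39 lists, and a preset list. The largest differences were added after seeing values. Symbols of unnamed loci and open reading frames were passed over in the ranking by p and by size. The members and lists were chosen with earlier results of these data known. The number of arrays limits the precision. Alternatives covered the test, probe-set choice, normalization, array weights, IGHV status, RNA integrity, cut-offs and each dog left out.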

Additional observations from a re-analysis of the deposited data

Results flagged for a closer look

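Of 396 groups of dogs tested (named genes and list scores, each in 1 group), 35 held a dog whose gap to the next was above Dixon's 95% critical value; chance flags about 1 in 20. Values are log2 levels, with the next dog's value after each.

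Early replicate 4 was apart for RPL22 (10.82, next 9.87), GAPDH (6.64, 7.23), NBN (12.46, 11.78), AFMID (6.11, 6.67), KLHDC1 (10.14, 7.49) and the oxidative phosphorylation score (-0.53, -0.11). Early replicate 8 was apart for PLPP7 (8.76, 9.05), PDCD1 (7.67, 6.97), FAP (8.25, 7.91), RPL7 (13.82, 13.98) and KMO (8.27, 10.38). Early replicate 1 was apart for PPARG (9.09, 6.37), BCL6 (11.58, 9.59) and the adipocyte score (0.45, 0.11). In other early dogs the values were 6.34 for CD96 (next 6.63), 12.95 for NUSAP1 (12.02), 7.76 for NR3C1 (8.94) and 0.28 for the activated B-cell-like score (0.09).

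Late replicate 1 was apart for CCND2 (10.94, next 11.53), LTBR (7.55, 7.81), PPARG (5.36, 5.53), NBN (12.63, 12.02), and the scores of oxidative phosphorylation (-0.57, -0.19), DNA damage repair (0.34, 0.06) and the TNF family (-0.33, -0.05). Late replicate 8 was apart for KRT8 (4.72, 4.05), SLC7A5 (8.22, 7.87) and RPL7 (14, 14.1). In other late dogs the values were 11.65 for IFI44L (next 12.48), 8.25 for EPCAM (5.83), 7.21 for ADM (6.42), 8.44 for TGFB1 (9.51), 5.1 for PKIA (9.03), 9.28 for TOX (6.97) and 0.68 for the B-cell identity score (0.17).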

How the results depend on the processing

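The count of genes called between early and late nodes was 0 under every alternative run. The 751 genes at an unadjusted p under 0.05 became 1557 with array weights, 450 with narrower cut-offs (8 and 7 dogs) and 1947 over every probe set, and ran from 584 (without late replicate 2) to 1613 (without early replicate 4). Early against late aspirates went from 0 called genes to between 1 and 3 when an early aspirate was left out (chosen after seeing the data), and the difference between tissues to between 0 and 1. Signs turned for CD96 (0.076) and EIF2S3 (-1.29) with the mean of all probe sets, KDM6A (-0.062) and MME (-0.018) with the rank-sum test, and DDX3X (-0.021) and MYC (-0.054) with array weights. They turned for MYC (-0.10) and ABCB1 (0.040) with IGHV status, and MYC (-0.14) and ABCB1 (0.0115) without dogs over 1 in RNA integrity. With narrower cut-offs they turned for PPBP (0.015), DDX3X (-0.036), BCL6 (0.032), CD3E (0.012), COL1A1 (-0.11) and NR3C1 (-0.024). In the Cox model (log hazard) they turned for PPBP (0.25), DDX3X (-0.69), CD79A (-0.035), COL1A1 (-0.0061) and NR3C1 (-0.17). With each dog left out, ranges crossing 0 were -0.12 to 0.31 for CD79A, -0.21 to 0.27 for COL1A1, -0.051 to 0.096 for DDX3X, -0.02 to 0.082 for MME, -0.16 to 0.005 for MS4A1 and -0.079 to 0.098 for MYC. Over 28 settings, list medians near 0 changed sign in 17 for glucocorticoid response, 15 for T cell, 9 each for B-cell receptor signalling, NF-kB and plasma cell, 5 for lymph node stroma, 4 for chromatin regulators, 3 for drug transport, 2 each for the BCL2 family, oxidative phosphorylation and resting B cell, and 1 each for germinal centre, MYC targets, costimulation and the TNF family. The cause was not tested. No paired analysis was possible because each dog is in 1 group and the labels share no replicate numbers.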

Other observations

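Early dogs differed more among themselves than late dogs did, a pattern picked after the values were seen. The mean correlation of an array with the others of its group was 0.964 ± 0.0082 (SD, n = 10) in early and 0.978 ± 0.0043 (n = 10) in late dogs. The difference in mean pairwise correlation was -0.0135 (exact permutation test over dogs, two-sided, p = 0.0275). It was -0.0088 without early replicate 4 (exact permutation p = 0.115) and -0.0081 without early replicates 4 and 8 and late replicate 1 (exact permutation p = 0.0516), so the call rests on early replicate 4. The SD was larger in early dogs for 11060 of 15115 genes (73.2%), and for 9478 (62.7%) without early replicate 4. The median SD of a gene was 0.252 in early, 0.230 in intermediate and 0.198 in late dogs.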
